A study of Mus musculus with 16 samples.

Results

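The enzymes that break down proline, ornithine and arginine were examined in quadriceps muscle, beside the enzymes that make proline and the one that draws ornithine into polyamines. Prodh, Aldh4a1, Oat and Arg2 were taken as breakdown enzymes, Aldh18a1 and Pycr1 as synthesis enzymes, and Odc1 as the polyamine enzyme. All probes whose accession matched these 7 genes were used, which gave 8 of the 41174 probes on the array; those probes name 17178 genes in all. The mice were KO or WT for Klf15, which encodes a zinc-finger transcription factor, and were killed 8 h after 1 intraperitoneal dose of 2 mg/kg dexamethasone, a synthetic glucocorticoid, or of vehicle. The 4 groups were KO given dexamethasone, KO given vehicle, WT given dexamethasone and WT given vehicle, with 4 animals and 4 arrays each, 16 in all. The labels used here name no strain, age or layout of the targeted allele. The design asks how muscle transcripts respond to a glucocorticoid and how far that response needs Klf15.

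Proline is broken down in mitochondria. Proline dehydrogenase, encoded by Prodh, oxidises it to pyrroline-5-carboxylate and passes the electrons to the respiratory chain, and the aldehyde dehydrogenase encoded by Aldh4a1 turns that intermediate into glutamate. Ornithine enters at the same intermediate through ornithine aminotransferase, encoded by Oat, and arginine reaches ornithine through the arginases, of which Arg2 encodes the mitochondrial one. The opposite route starts from glutamate: Aldh18a1 encodes pyrroline-5-carboxylate synthase and Pycr1 encodes a reductase that completes proline. Odc1 encodes ornithine decarboxylase, which makes putrescine, the first polyamine. Klf15 is known in muscle as a regulator of amino acid breakdown and as a gene that glucocorticoids induce.

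KLF proteins bind CACCC boxes and the glucocorticoid receptor binds the motif AGAACA, so the 250 bases before the annotated start were searched for both, on both strands. The promoters of the 3 breakdown enzymes that differed between genotypes and of the synthesis enzyme Aldh18a1 are shown for that comparison, from the RefSeq promoter table of build GRCm38.p6, 5′ to 3′ on the gene's strand, with CACCC boxes or their complement GGGTG in capitals. Prodh lies at chr16:18089191-18089440 (minus strand), Aldh4a1 at chr4:139622644-139622893 (plus strand), Oat at chr7:132576399-132576648 (minus strand) and Aldh18a1 at chr19:40588464-40588713 (minus strand).
Prodh: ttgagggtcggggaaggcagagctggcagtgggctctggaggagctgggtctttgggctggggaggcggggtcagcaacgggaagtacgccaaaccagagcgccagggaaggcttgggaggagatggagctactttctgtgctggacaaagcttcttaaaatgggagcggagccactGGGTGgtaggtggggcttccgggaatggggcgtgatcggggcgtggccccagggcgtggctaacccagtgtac
Aldh4a1: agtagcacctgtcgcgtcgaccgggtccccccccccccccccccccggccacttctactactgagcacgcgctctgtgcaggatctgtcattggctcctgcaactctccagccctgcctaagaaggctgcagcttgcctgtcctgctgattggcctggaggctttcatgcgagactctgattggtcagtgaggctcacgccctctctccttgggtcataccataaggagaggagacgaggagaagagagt
Oat: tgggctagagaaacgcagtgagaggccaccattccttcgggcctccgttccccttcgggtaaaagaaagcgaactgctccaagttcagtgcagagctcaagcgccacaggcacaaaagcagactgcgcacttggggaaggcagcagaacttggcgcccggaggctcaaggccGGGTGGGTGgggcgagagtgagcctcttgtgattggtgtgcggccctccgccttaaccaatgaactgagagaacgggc
Aldh18a1: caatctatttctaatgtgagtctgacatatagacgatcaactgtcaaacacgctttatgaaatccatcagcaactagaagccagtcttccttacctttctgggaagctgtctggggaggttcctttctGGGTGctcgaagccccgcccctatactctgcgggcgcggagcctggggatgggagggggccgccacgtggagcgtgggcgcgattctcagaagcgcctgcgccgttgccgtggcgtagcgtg
Prodh had 1 CACCC box, which began 73 bases before the start. Oat had 2, at 78 and 74 bases, which overlapped by 1 base, Aldh18a1 had 1 at 122 bases, and Aldh4a1 had none in this window. Among the promoters not shown, Odc1 had 2, at 112 and 108 bases, and Pycr1 had none, so 4 of the 6 members in the table held a box. Such a box is common: 52% of 32851 mouse promoters held at least 1 in the same window, or 30.2% on the gene's strand alone. AGAACA, which 16.1% of promoters held, was in none of the 6 members' promoters in the table, nor was the full palindromic glucocorticoid site, which 0.00913% held. Of the other motifs searched, the ATF4 element TGATGNAA (3.45% of promoters) was found in Pycr1 and the E-box CACGTG (6.02%) in Aldh18a1, 1 each. A match describes letters in this window and is not evidence of binding.

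Levels are given as log2 intensity minus the array's own 75th percentile, so a level of 0 is that percentile and 1 unit is a doubling; levels of different probes cannot be set against each other. The 75th percentile itself lay between intensities of 555.9 and 1169 over the arrays, and 66.3% to 80.6% of spots were well above background. A total of 25189 features were tested, each gene by its brightest probe, and 5 of the 7 members were among them. Arg2 was too dim and is described below without a test, and Pycr1 was matched by no probe and was not analysed here. All 9 skeletal muscle markers, Ckm and Acta1 among them, were well above background on every array. KO dexamethasone replicate 1 and WT dexamethasone replicate 3 stood apart by neutrophil markers, whose median deviation from their all-array means was 6.55 and 7.86 on the log2 scale, so members' results are also given without both. Erythroid markers were highest on the same arrays (1.44 and 1.83). Per the file headers, WT dexamethasone replicate 3 was the only array of the second scan date, and it had the lowest 75th percentile (555.9). Scan date and cell content cannot be told apart on that array. The arrays lay on 8 slides, and arrays of different groups on the same slide deviated together from their group means in all 11 such pairs (correlations of 0.186 to 0.794), so the slide was fitted as a block and differences within slides are given. KO vehicle replicate 2 and replicates 1 and 3 of WT dexamethasone each had a slide with no other array, and add nothing to a fixed slide block. The labels name 4 animals a group, with 1 array each. The main fit held no slide term, so its p-values rest on a spread that mixes animals and slides. The consensus correlation of arrays within a slide was 0.57.

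The targeted gene was lower on every KO array. Klf15 probe A_52_P64383 had levels of 0.57, 0.23, 0.64 and 0.60 in KO muscle after dexamethasone, -1.29, -0.84, -0.48 and -0.12 in KO muscle after vehicle, 4.10, 4.77, 3.94 and 4.40 in WT muscle after dexamethasone, and 3.78, 3.25, 2.80 and 3.36 in WT muscle after vehicle. The 8 KO and 8 WT arrays did not overlap (exact permutation test, two-sided p = 0.0001554, the smallest that 12870 arrangements can give). Whether the probes lie in the deleted part is not stated in the labels, so the lower level is reported as measured.

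Prodh was the member that differed most between genotypes. In KO muscle its levels were 0.62, 0.47, 0.52 and 0.34 after dexamethasone and 0.12, 0.18, 0.01 and 0.31 after vehicle, against 3.76, 4.09, 3.79 and 3.93 in WT muscle after dexamethasone and 3.13, 3.01, 3.37 and 3.35 after vehicle. Every KO array lay more than 2 log2 units below every WT array. KO muscle was 10.6-fold lower than WT under dexamethasone (log2 change -3.40, SE 0.11, adjusted p 1.68e-09) and 8.32-fold lower under vehicle (-3.06, SE 0.11, adjusted p 6.97e-09). Ranked by size among all 25189 features, these were the 9th and the 5th largest differences of their comparisons. On slide 8 the KO minus WT difference under dexamethasone was -3.40, and on slides 4, 6 and 7 under vehicle it was -2.70, -3.12 and -3.25.

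**Figure D1:**
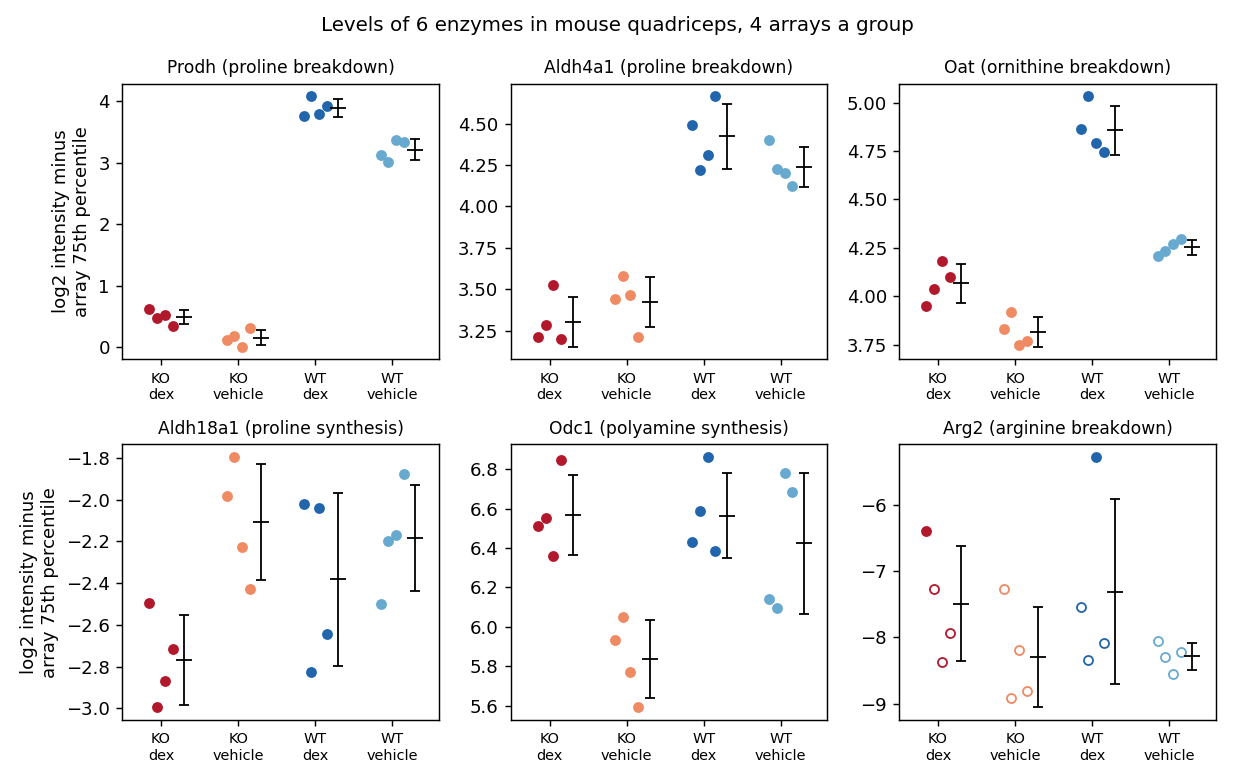
Level of 6 enzyme genes on each of 16 arrays (vertical axis, log2 intensity minus the array's 75th percentile; each panel has its own scale) in 4 groups (horizontal axis; dex, dexamethasone). Points are arrays, open where the spot was not well above background, and bars show mean and SD (n = 4); KO arrays lie below all WT arrays for Prodh, Aldh4a1 and Oat, and 2 Arg2 points are filled.

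Aldh4a1, the next enzyme of the route, was lower in KO muscle in both treatments, by a smaller amount. With the brighter probe its levels were 3.21, 3.28, 3.52 and 3.20 in KO muscle after dexamethasone and 3.44, 3.58, 3.46 and 3.21 after vehicle, against 4.49, 4.22, 4.31 and 4.67 in WT muscle after dexamethasone and 4.40, 4.23, 4.20 and 4.12 after vehicle. No KO array overlapped a WT array. The difference was 2.17-fold under dexamethasone (log2 change -1.12, SE 0.12, adjusted p 1.58e-04) and 1.76-fold under vehicle (-0.82, SE 0.12, adjusted p 0.00599). Within slides it was -1.14 under dexamethasone and -1.02, -0.94 and -0.76 under vehicle. The vehicle call was lost with median scaling (-0.70, adjusted p 0.542), normexp (-0.65, adjusted p 0.675), the mean of both probes (-0.70, adjusted p 0.059) and the omission of slide 7 with WT dexamethasone replicate 1 (-0.83, adjusted p 0.17). The second probe, A_52_P123230, had levels of -4.86 to -3.12 over the 16 arrays. Tested over 32397 probes, it gave -0.43 (SE 0.27, adjusted p 0.513) under dexamethasone and -0.59 (SE 0.27, adjusted p 0.641) under vehicle, so the lower level in KO passed with 1 of 2 probes.

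Oat, through which ornithine joins the proline route, was also lower in KO muscle. Its levels were 3.95, 4.04, 4.18 and 4.10 in KO muscle after dexamethasone and 3.83, 3.92, 3.75 and 3.77 after vehicle, against 4.86, 5.03, 4.79 and 4.74 in WT muscle after dexamethasone and 4.21, 4.24, 4.27 and 4.30 after vehicle. The highest KO array, at 4.18, stood just below the lowest WT array, at 4.21. After dexamethasone KO muscle was 1.73-fold lower (log2 change -0.79, SE 0.08, adjusted p 1.33e-04). After vehicle it was 1.35-fold lower (-0.44, SE 0.08, adjusted p 0.0479), which is close to the threshold of 0.05. That call was lost when any array other than WT dexamethasone replicate 2 was left out (adjusted p 0.0504 to 0.181, log2 change -0.47 to -0.41). With slide as a fixed block, the adjusted p was 0.114 under dexamethasone (-0.73) and 0.259 under vehicle (-0.43). Within slides Oat differed by -0.56 under dexamethasone and by -0.47, -0.46 and -0.44 under vehicle.

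Arg2, the mitochondrial arginase, was near the detection limit. Its levels were -6.39, -7.27, -8.37 and -7.93 in KO muscle after dexamethasone, -7.27, -8.91, -8.20 and -8.82 in KO muscle after vehicle, -7.54, -8.34, -5.28 and -8.08 in WT muscle after dexamethasone, and -8.06, -8.30, -8.55 and -8.22 in WT muscle after vehicle. The spot was well above background on 2 arrays, KO dexamethasone replicate 1 and WT dexamethasone replicate 3, the same arrays that were high in neutrophil markers. The part of those cells in the Arg2 signal was not tested, nor was that of the separate scan date of WT dexamethasone replicate 3.

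On the synthesis side, Aldh18a1 showed no difference between genotypes that passed. Levels were -2.49, -2.99, -2.87 and -2.71 in KO muscle after dexamethasone and -1.98, -1.80, -2.23 and -2.43 after vehicle, against -2.02, -2.82, -2.04 and -2.65 in WT muscle after dexamethasone and -2.50, -2.20, -2.17 and -1.88 after vehicle. KO and WT arrays overlapped in each treatment. The KO minus WT difference was -0.39 (SE 0.21, adjusted p 0.453) under dexamethasone and 0.08 (SE 0.21, adjusted p 0.972) under vehicle. With an SE of 0.21, a difference of the size seen for Oat under vehicle cannot be told from none.

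Odc1 was bright on every array. It varied more within groups (SD 0.20 to 0.36) than Prodh, Oat and the brighter Aldh4a1 probe. Its levels were 6.51, 6.55, 6.36 and 6.84 in KO muscle after dexamethasone and 5.93, 6.05, 5.77 and 5.59 after vehicle, against 6.43, 6.59, 6.86 and 6.38 in WT muscle after dexamethasone and 6.14, 6.09, 6.78 and 6.68 after vehicle. With this probe, the brighter of 2, the KO vehicle arrays were the lowest of the 4 groups and overlapped none of the others. Even so, its KO minus WT difference under vehicle did not pass (-0.59, SE 0.18, adjusted p 0.378), though it did with slide as a random block (adjusted p 0.0489). The dimmer probe, A_52_P436238, showed no such gap: it ranged from 1.27 to 2.32 in KO muscle and from 1.64 to 2.21 in WT muscle after vehicle (difference -0.03, SE 0.23, adjusted p 0.995). Under dexamethasone KO and WT muscle had the same mean (difference 0.00, SE 0.18, adjusted p 0.999).

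By role, all 3 breakdown enzymes tested were called lower in KO muscle under each treatment, and neither Aldh18a1 nor Odc1 passed. Under vehicle the calls of Aldh4a1 and Oat depended on the processing: Prodh passed in 15 of 15 settings, Aldh4a1 in 11 and Oat in 4. Under dexamethasone 0.83% of all features were called lower in KO (1.88% in either direction), and under vehicle 0.242% were (0.266% in either direction). Groups without overlap and lower in KO were seen for the 3 enzymes and 3.71% of features under dexamethasone, for the 3, Odc1 and 4.37% of features under vehicle, and for the 3 and 0.512% over both treatments. Averaged over treatments, Prodh fell by 3.23 (SE 0.08, adjusted p 3.32e-11), Aldh4a1 by 0.97 (SE 0.08, adjusted p 1.47e-05) and Oat by 0.61 (SE 0.06, adjusted p 3.65e-05) on the log2 scale, against 0.977% of all features called lower (1.35% in either direction). The median change of the 3 breakdown enzymes was -1.12 under dexamethasone and -0.82 under vehicle, beside 0.06 and -0.08 over all features. The members were chosen with earlier results of these data known, so these shares and medians are a description and not a test. With slide as a fixed block, Prodh and Aldh4a1 passed under dexamethasone, under vehicle and averaged, and Oat in none of these 3 comparisons. Without both arrays high in neutrophil markers, Prodh, Aldh4a1 and Oat passed under dexamethasone and averaged, and under vehicle the adjusted p of Oat was 0.0794. No cell type marker passed in KO against WT under either treatment. All 6 adipocyte markers were higher in KO (median 0.79 under dexamethasone, 0.28 under vehicle). Of 7 slow-fibre markers, 6 were higher under vehicle (median 0.76, up to 2.20) and all 7 lower under dexamethasone (median -0.20). All 9 macrophage markers were lower under vehicle (median -0.32) and higher under dexamethasone (median 0.25). Neutrophil markers were lower in KO for 8 of 8 under dexamethasone (median -1.10) and 5 of 8 under vehicle (median -0.26). All 7 endothelial markers were higher under vehicle (median 0.24), and 5 of 7 lower under dexamethasone (median -0.02). All 6 fibroblast markers were lower under vehicle (median -0.19), and 5 of 6 higher under dexamethasone (median 0.23). The part of these lists in the enzyme values was not tested. The split of calls over all features moved with the scaling: 55.8% of those under dexamethasone were higher in KO with the 75th percentile, 12.6% with the median and 39.4% with quantile normalization, and averaged over treatments the shares were 27.4%, 13.9% and 23.8%.

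**Figure D2:**
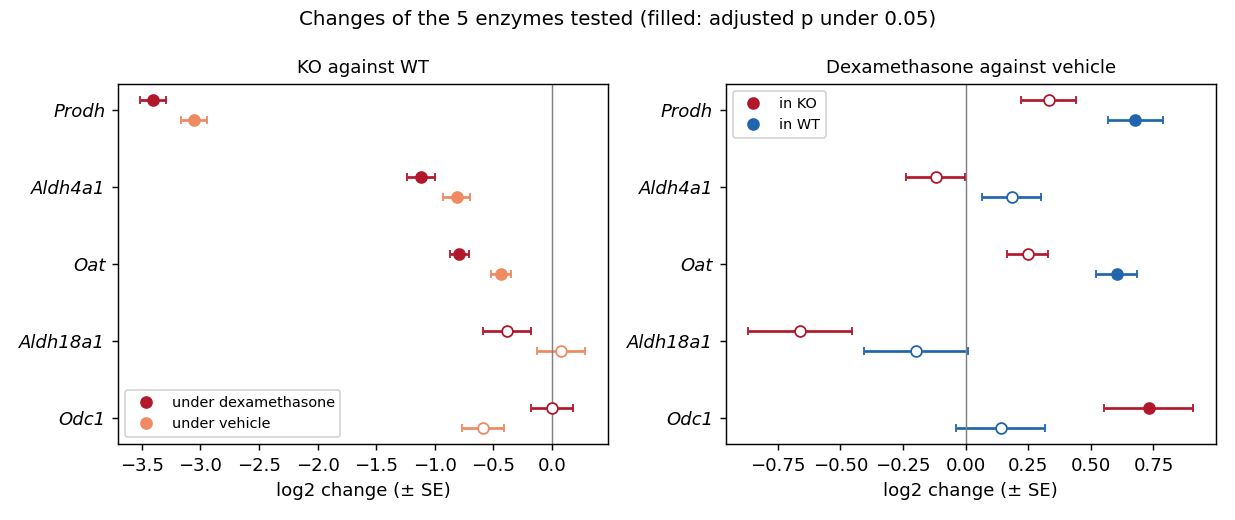
Log2 change of the 5 enzymes tested (horizontal axis, with SE), for KO against WT under each treatment (left) and for dexamethasone against vehicle in each genotype (right). Filled points passed an adjusted p of 0.05 over 25189 features; Prodh, Aldh4a1 and Oat are filled in both treatments on the left, and on the right Prodh and Oat are filled in WT and Odc1 in KO.

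Dexamethasone raised Prodh and Oat in WT muscle. Prodh rose 1.60-fold (log2 change 0.68, SE 0.11, adjusted p 0.00149) and Oat 1.52-fold (0.60, SE 0.08, adjusted p 4.37e-04), and for both genes every dexamethasone array lay above every vehicle array, as did 7.66% of all features. These were 2 of the 5 members tested, where 5.03% of all features were called higher and 10.7% in either direction. Aldh4a1 changed by 0.18 (SE 0.12, adjusted p 0.375), Aldh18a1 by -0.20 (SE 0.21, adjusted p 0.599) and Odc1 by 0.14 (SE 0.18, adjusted p 0.673). Without both arrays high in neutrophil markers, Prodh changed by 0.71 (adjusted p 0.00437) and Oat by 0.63 (adjusted p 0.00166). With slide as a fixed block, the adjusted p was 0.0646 for Prodh (0.73) and 0.0605 for Oat (0.57). Only slide 5 held both WT groups, with 0.74 for each gene. Of all features called in WT, 47.1% were higher with the 75th percentile, 82.3% with median scaling and 57.1% with quantile normalization. Slow-fibre markers were higher without passing: all 7 had a positive change (median 1.38, up to 4.02), with a summed level of 7.91 to 8.65 after dexamethasone and 7.68 to 8.23 after vehicle. Markers of macrophages moved in the same comparison: 4 of 9 fell, and their summed level ranged from 2.87 to 3.30 after dexamethasone and from 3.48 to 4.05 after vehicle. Of 6 adipocyte markers 1 rose, and of 6 fibroblast markers 1 fell. All 8 neutrophil markers had a positive change without passing (median 2.25). The part of these lists in these values was not tested.

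In KO muscle Odc1 was the member that rose with dexamethasone. It rose 1.66-fold (log2 change 0.73, SE 0.18, adjusted p 0.0172), with every dexamethasone array above every vehicle array, where 5.7% of all features were called higher and 10.2% in either direction. Without KO dexamethasone replicate 4 the change was 0.64 (adjusted p 0.0575). The rise was seen with the brighter probe alone; the dimmer one gave 0.24 (SE 0.23, adjusted p 0.657). Within slides 4, 6 and 7 the brighter probe changed by 0.92, 1.08 and 0.62, and with slide as a fixed block by 0.84 (adjusted p 0.0306). Without both arrays high in neutrophil markers Odc1 passed (0.75, adjusted p 0.0335).

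The breakdown enzymes did not pass in KO muscle. Prodh changed by 0.33 (SE 0.11, adjusted p 0.0778) and Oat by 0.25 (SE 0.08, adjusted p 0.0771), although for both the dexamethasone arrays lay above the vehicle arrays without overlap, as 9.2% of all features did. Prodh differed by 0.31, 0.33 and 0.35 within slides 4, 6 and 7, a narrow range, and Oat by 0.18, 0.35 and 0.20. With slide as a random block Prodh (adjusted p 0.0167), Oat (0.0106) and Aldh18a1 (-0.58, adjusted p 0.0328) passed. Aldh4a1 changed by -0.12 (SE 0.12, adjusted p 0.677). Aldh18a1 was lower on every dexamethasone array than on any vehicle array, as were 6.72% of features, with a change of -0.66 (SE 0.21, adjusted p 0.062) that passed without KO vehicle replicate 4 (-0.77, adjusted p 0.0437) or without WT dexamethasone replicate 2 (adjusted p 0.0426). Without WT dexamethasone replicate 2 Oat passed as well (adjusted p 0.049). When both neutrophil-high arrays were left out, Prodh changed by 0.29 (adjusted p 0.199), Oat by 0.29 (adjusted p 0.0732) and Aldh18a1 by -0.75 (adjusted p 0.0531). Of all features called in KO, 55.8% were higher with the 75th percentile, 45.4% with median scaling and 44.8% with quantile normalization. Endothelial markers moved in this comparison: 4 of 7 fell, with a summed level of 4.40 to 4.71 after dexamethasone and 4.66 to 4.95 after vehicle. Of 6 adipocyte markers 1 rose, and of 6 fibroblast markers 1 fell. All 7 slow-fibre markers (median 0.56) and all 8 neutrophil markers (median 1.39) had a positive change without passing. The part of these lists in these values was not tested.

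Averaged over genotypes, 3 of the 5 members rose with dexamethasone, where 9.06% of all features were called higher and 17.2% in either direction. Prodh changed by 0.50 (SE 0.08, adjusted p 4.39e-04), Oat by 0.43 (SE 0.06, adjusted p 1.66e-04) and Odc1 by 0.44 (SE 0.13, adjusted p 0.0278). Odc1 no longer passed without any 1 of 6 arrays, which were KO dexamethasone replicate 4, KO vehicle replicates 3 and 4, WT dexamethasone replicate 3 and WT vehicle replicates 1 and 2 (adjusted p up to 0.0618). Aldh18a1, at -0.43 (SE 0.15, adjusted p 0.0623), was the only member tested with a negative change. It passed without any 1 of KO vehicle replicate 4, WT dexamethasone replicates 1 and 3 and WT vehicle replicate 1 (adjusted p 0.0364 to 0.0469). When both neutrophil-high arrays were left out, Prodh (0.50, adjusted p 0.00201) and Oat (0.46, adjusted p 4.8e-04) rose, Aldh18a1 fell (-0.53, adjusted p 0.0337) and Odc1 did not pass (0.39, adjusted p 0.075). Higher calls made up 52.6% of all those averaged over genotypes with the 75th percentile, and 66.1% with median scaling.

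**Figure D3:**
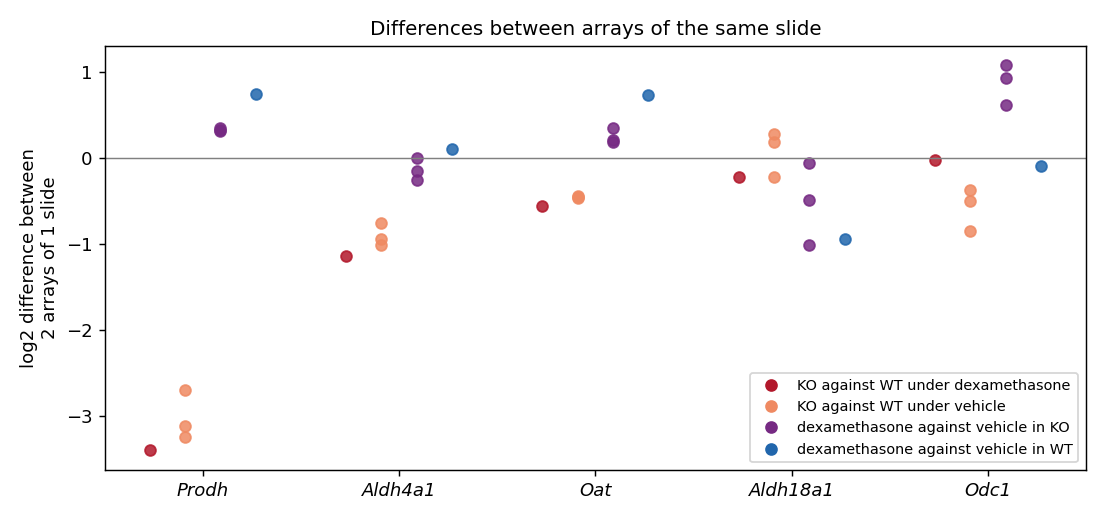
Log2 difference between an array of the first group and one of the second on the same slide (vertical axis) for 5 enzyme genes (horizontal axis); each point is 1 slide and colours mark the comparison. Prodh lies between -3.40 and -2.70 for KO against WT on all 4 slides, and its 3 values for dexamethasone against vehicle in KO lie between 0.31 and 0.35.

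The response to dexamethasone was also compared between genotypes directly. No member passed this interaction (dexamethasone change in KO minus that in WT), nor did any of the 25189 features (0%), although 2902 features (11.5%) had an unadjusted p under 0.05. Among the members, Oat (-0.36, SE 0.12), Prodh (-0.35, SE 0.16) and Odc1 (0.59, SE 0.25) were among these 2902, with adjusted p of 0.282, 0.423 and 0.4. Aldh4a1 differed by -0.30 (SE 0.17, adjusted p 0.5) and Aldh18a1 by -0.46 (SE 0.29, adjusted p 0.558). The median over all features was 0.13 with the 75th percentile and -0.17 with median scaling. With slide as a random block 336 features passed and none was a member, and without both neutrophil-high arrays no feature passed. A rise of Prodh and Oat that passed in WT and not in KO is therefore not shown to differ between the genotypes.

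Other genes of the route were followed in 4 lists of 50 genes, of which 43 were tested. The arginine and ornithine list held the genes that were lower in KO muscle. Slc25a29, which encodes a mitochondrial carrier of basic amino acids, had levels of -0.29, -0.32, -0.68 and -0.62 in KO muscle after dexamethasone and -0.20, -0.27, -0.78 and -0.36 after vehicle, against 1.44, 0.78, 1.05 and 0.65 in WT muscle after dexamethasone and 0.62, 0.62, 0.66 and 0.93 after vehicle. No KO array reached 0 and no WT array fell below 0.62. KO muscle was 2.74-fold lower under dexamethasone (log2 change -1.46, SE 0.18, adjusted p 5.32e-04) and 2.15-fold lower under vehicle (-1.11, SE 0.18, adjusted p 0.0137). The vehicle call was lost without WT vehicle replicate 4 (adjusted p 0.0648) or KO vehicle replicate 3 (0.0517). Its second probe, A_52_P274591, gave -0.84 (adjusted p 0.232) under vehicle and passed under dexamethasone (adjusted p 0.0277, 2-fold lower).

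Ass1 and Asl encode the enzymes that make arginine from citrulline, by way of argininosuccinate. Ass1 had levels of -1.77, -2.26, -2.43 and -2.36 in KO muscle after dexamethasone, against -0.99, -0.43, -0.84 and -1.19 in WT muscle after dexamethasone, and was 2.53-fold lower (log2 change -1.34, SE 0.18, adjusted p 0.00133). Under vehicle it differed by -0.33 (SE 0.18, adjusted p 0.762). Asl had levels of -0.50, -0.57, -0.87 and -0.78 in KO muscle after dexamethasone, against 0.40, 0.28, -0.01 and -0.06 in WT muscle after dexamethasone, and was 1.78-fold lower (-0.83, SE 0.13, adjusted p 0.00466). Under vehicle Asl differed by -0.44 (SE 0.13, adjusted p 0.378). Neither gene's interaction passed (Ass1 -1.01, adjusted p 0.198; Asl -0.39, adjusted p 0.443), except that of Ass1 with slide as a random block (-1.02, adjusted p 0.0423). With slide as a fixed block the genotype calls of Ass1, Asl and Slc25a29 under dexamethasone were lost (-1.30, -0.78 and -1.14; adjusted p 0.141, 0.110 and 0.0906), and on slide 8 they differed by -1.24, -0.81 and -1.33.

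In all, 3 of the 43 pathway genes fell and 40 did not pass in KO against WT under dexamethasone, and 1 fell and 42 did not pass under vehicle; 0.83% and 0.242% of all features were called lower there. Averaged over treatments, where 0.977% of all features were called lower, 4 fell: Slc25a29 (-1.28, adjusted p 4.79e-05), Ass1 (-0.83, adjusted p 0.00345), Asl (-0.63, adjusted p 0.00257) and Slc7a1 (-0.33, adjusted p 0.0185). Slc7a1 encodes a plasma membrane arginine transporter, and its dimmer probe gave 0.20 (adjusted p 0.996). Its fall averaged over treatments passed in 6 of 15 settings (-0.54 to -0.06). The medians of the 43 were -0.02 under dexamethasone, -0.12 under vehicle and -0.07 averaged, beside 0.06, -0.08 and -0.01 over all features. None of the 11 tested genes of the proline and hydroxyproline list, the 14 of the polyamine list or the 4 at the glutamate end passed in any of these 3 comparisons (limma). The 14 polyamine genes ranged from -0.35 to -0.02 averaged over treatments.

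**Figure D4:**
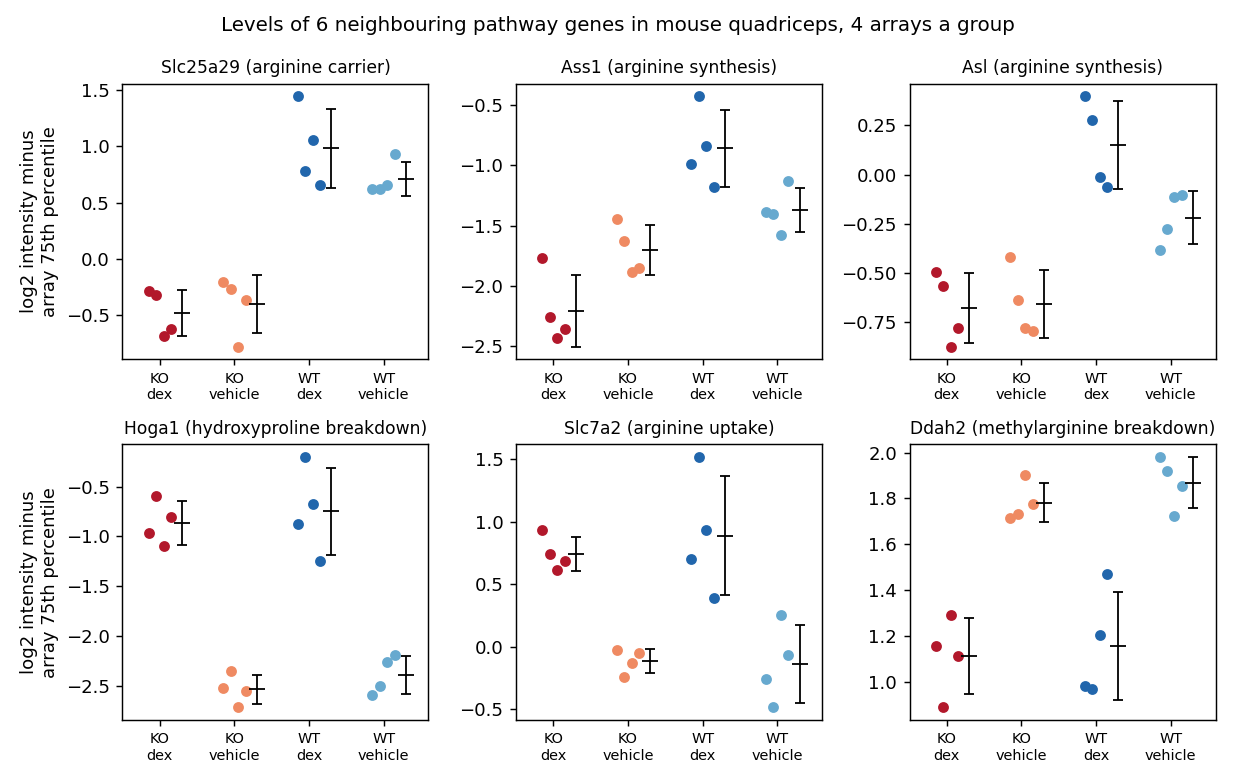
Level of 6 pathway genes on each of 16 arrays (vertical axis, log2 intensity minus the array's 75th percentile; each panel has its own scale) in 4 groups (horizontal axis; dex, dexamethasone), with mean and SD (n = 4). In the upper row all KO dexamethasone arrays lie below all WT dexamethasone arrays, and the lower row shows genes that moved with dexamethasone in both genotypes.

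Dexamethasone moved other members of the same lists in both genotypes. Hoga1, which encodes the aldolase of the last step of hydroxyproline breakdown, had levels of -0.97, -0.59, -1.10 and -0.80 in KO muscle after dexamethasone, against -2.53, -2.35, -2.72 and -2.56 after vehicle. In WT muscle it had -0.87, -0.20, -0.67 and -1.25 after dexamethasone, against -2.60, -2.50, -2.26 and -2.20 after vehicle. Dexamethasone and vehicle arrays did not overlap, and the rise was 3.19-fold in KO (log2 change 1.67, SE 0.19, adjusted p 8.99e-05) and 3.12-fold in WT (1.64, SE 0.19, adjusted p 1.35e-04). Slc7a2, another arginine transporter gene, rose 1.81-fold in KO (0.86, SE 0.20, adjusted p 0.0160) and 2.04-fold in WT (1.03, SE 0.20, adjusted p 0.00590). Ddah2 is named for a family of enzymes that clears methylarginines, inhibitors of nitric oxide synthase. It fell 1.59-fold in KO (-0.67, SE 0.12, adjusted p 0.00272) and 1.64-fold in WT (-0.71, SE 0.12, adjusted p 0.00197). The activity of its product was not measured.

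Nos2, the inducible nitric oxide synthase gene, was dim: it was well above background on 2 of 4 dexamethasone arrays of each genotype and on all vehicle arrays. Its log2 change was -1.40 in KO (SE 0.21, adjusted p 6.46e-04) and -0.87 in WT (SE 0.21, adjusted p 0.0151), and no fold is given because the dexamethasone levels are partly at background. With normexp background correction the direction turned, to 0.13 in KO and 0.24 in WT, neither called, and the fall passed in 12 of 14 settings in KO and 8 of 14 in WT. The WT call was also lost without WT vehicle replicate 2 (adjusted p 0.0509). With dexamethasone 4 of 9 macrophage markers fell in WT, and none passed in KO (median -0.28). Of 7 endothelial markers 4 fell in KO, and none passed in WT (median 0.02). Fewer cells of a type cannot be told apart from less RNA per cell in whole muscle. Sat1, which encodes the enzyme that acetylates spermidine and spermine, rose 1.49-fold in KO (0.57, SE 0.11, adjusted p 0.00414). In WT its brighter probe gave 0.33 (adjusted p 0.0709) and its dimmer probe 0.76 (adjusted p 0.001). In KO muscle the brighter probe of Slc7a1 rose (0.37, adjusted p 0.0163), but its dimmer probe, A_51_P243246, gave -1.02 (SE 0.98, adjusted p 0.647) and the mean of both probes -0.32 (adjusted p 0.82). The rise passed in 7 of 15 settings. The endothelial nitric oxide synthase gene Nos3 fell in KO muscle (-0.50, adjusted p 0.0466). Leaving out any of 11 arrays ended the call of Nos3 (adjusted p up to 0.141), and 3 ended that of Slc7a1 (KO vehicle replicates 1 and 2 and KO dexamethasone replicate 3, adjusted p up to 0.055).

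Over the 43 tested pathway genes, 4 rose, 3 fell and 36 did not pass with dexamethasone in KO, and 2 rose, 2 fell and 39 did not pass in WT. Of all features 10.2% were called in KO and 10.7% in WT, so the WT count is near that share. Averaged over genotypes 5 rose and 5 fell, where 17.2% of all features were called, and 4 of these 10 passed in neither genotype alone: Got1, a glutamate transaminase gene (0.27, adjusted p 0.0403), rose, and Gatm of creatine synthesis (-0.65, adjusted p 0.006), the pyrroline-5-carboxylate reductase gene Pycrl (-0.31, adjusted p 0.0336) and the antizyme inhibitor gene Azin1 (-0.43, adjusted p 0.00887) fell. Leaving out any of 12 arrays ended the call of Got1 (adjusted p up to 0.0853), and any of 8 that of Pycrl (up to 0.0736). Pycrl passed in 6 of 15 settings, and with normexp its direction turned (0.044, not called). The medians of the 43 were -0.05 in KO, -0.13 in WT and -0.07 averaged, beside 0.08, -0.08 and -0.02 over all features. Without both neutrophil-high arrays Slc7a2 with dexamethasone in KO (0.79, adjusted p 0.0624), Got1 averaged (0.24, adjusted p 0.0982) and Slc7a1 in KO against WT averaged (-0.29, adjusted p 0.0566) no longer passed, and Ass1 with dexamethasone in KO did (-0.65, adjusted p 0.0471). P4ha3, Arg1 and Otc were too dim to test, and 4 others of the lists (Slc6a20a, Cps1, Slc25a15 and Slc25a2) were not analysed here.

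**Figure D5:**
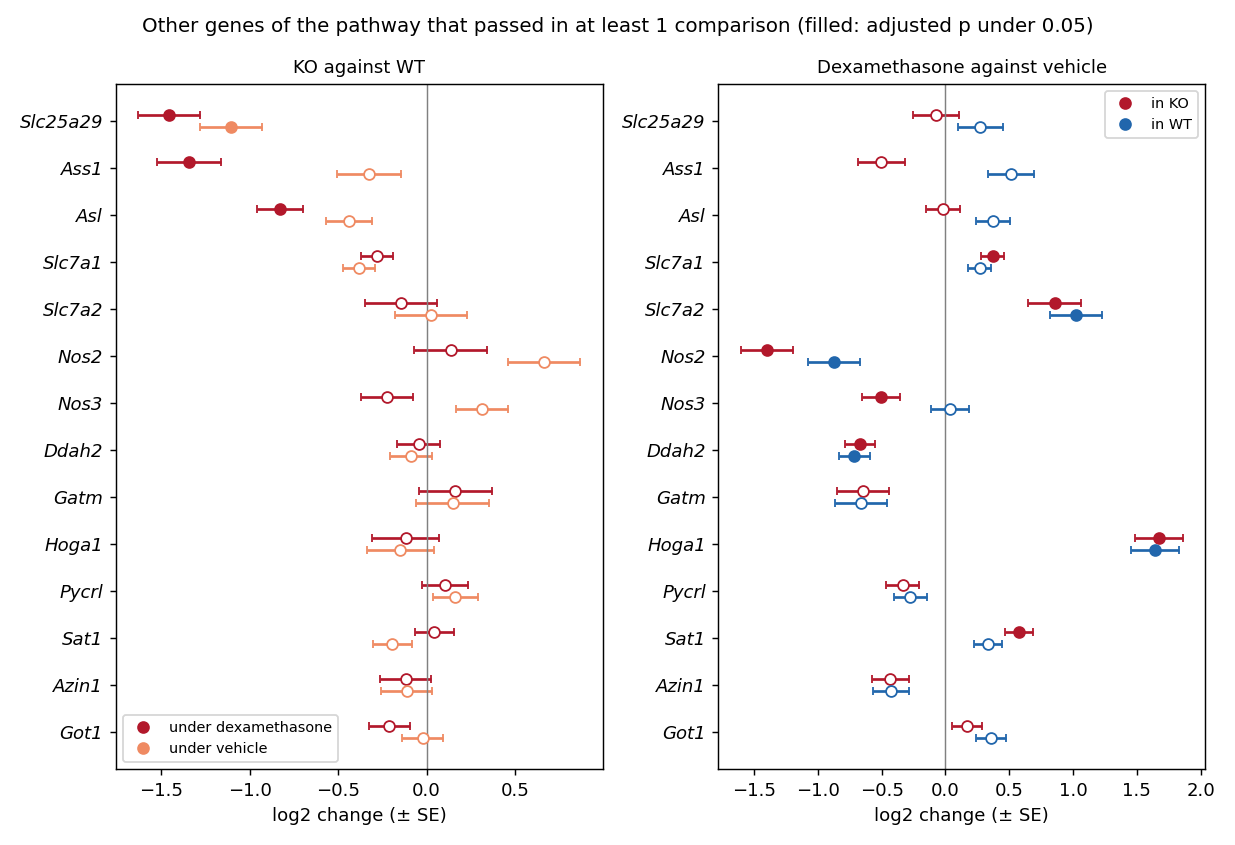
Log2 change (horizontal axis, with SE) of the 14 other pathway genes that passed in at least 1 comparison, for KO against WT under each treatment (left) and for dexamethasone against vehicle in each genotype (right); filled points passed an adjusted p of 0.05. Slc25a29 is filled in both treatments on the left, Ass1 and Asl under dexamethasone, and Hoga1, Slc7a2, Nos2 and Ddah2 in both genotypes on the right.

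The genes whose levels followed each member most closely over the 16 arrays were listed as a description; the correlations rest on the same arrays and largely on the 4 group means. For Prodh these were Aldh6a1 (Pearson r 0.99), of valine breakdown, Lin52 (0.99), Cth (0.98), of cysteine synthesis, Epop (0.98) and Lzts3 (0.98). Their KO minus WT differences averaged over treatments were -2.14, -1.48, -4.64, -2.80 and -1.34. For Aldh4a1 the closest were Lin52 (0.96), Adhfe1 (0.96) and Mthfd1 (0.95), and for Oat Epb41l5 (0.97), Acadsb (0.96) and Tango2 (0.95). Aldh18a1 was followed by Mpdz (0.91), S100a11 (0.90) and Parp11 (0.88), and Odc1 by Pbrm1 (0.86), Vkorc1l1 (0.85) and Slc16a3 (0.84). The KO minus WT differences of these last 6 genes lay between -0.10 and 0.00, and none passed.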

How the data were processed

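RNA of 16 quadriceps samples, grouped by their titles, was measured on 1-colour Agilent 4x44K arrays; per the labels' protocols it was amplified as cDNA and labelled with Cy3. The authors deposited scanner files of linear spot intensity, made per the file headers by Feature Extraction 10.7.3.1 with a grid of build mm9. A deposited table of log2 values served as an alternative; its column medians were 6.849 to 6.867, so its arrays were already scaled alike, and it ranked probes as the spot medians did (Spearman 1 on each array). Its normalization was not given in the sources used here.

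The main values were log2 of Agilent's background-subtracted signal, less the 75th percentile of its array. Control and outlier spots were left out. A feature was tested where 4 or more of 16 arrays held it well above background, which left 25189. Of 26382 probes with a RefSeq accession, 24844 were named through the RefSeq gene table (GRCm38.p6), which served for names only. The brightest probe stood for a gene. With limma 3.58.1 in R 4.3.3, 4 group means were fitted to all 16 arrays (lmFit, eBayes, two-sided, Benjamini-Hochberg over all features, threshold 0.05). The fit was also run on simulated data. These were drawn without slide effects, so they cannot show how the fit behaves where arrays share a slide. A fold is 2 to the size of the log2 change. The number of arrays limits the precision.

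The members and gene lists were chosen with earlier results of these data known. Named genes are the members, the genes of the 4 pathway lists that passed in any comparison, Klf15, and the 5 features most correlated with Prodh and 3 with each other member. Alternatives were other scalings, background corrections, filters and probe rules, the deposited values, slide and replicate blocks, array weights and arrays left out. The planned normexp correction was run on spot medians because the files hold no spot means used here. Replicate numbers did not pair the arrays: deviations of same-numbered arrays correlated over 0.1 in 5 of 24 pairs (median -0.04). Promoters were searched in Python 3.11.15 and figures were drawn with matplotlib.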

Additional observations from a re-analysis of the deposited data

Results flagged for a closer look

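Over 96 groups of 4 arrays, 3 held an array far from the other 3, where chance gives about 1 in 20. Slc25a29 (probe A_51_P288479) stood at 0.93 on WT vehicle replicate 4 and at 0.62 to 0.66 on the other WT vehicle arrays, all above every KO array. Gatm (A_51_P461319) stood at -1.64 on KO vehicle replicate 3 and at -2.00 to -1.96 on the other KO vehicle arrays. Klf15 (A_52_P64383) stood at 0.23 on KO dexamethasone replicate 2 and at 0.57 to 0.64 on the other 3. Arg2, which was not tested, was well above background on 2 dexamethasone arrays and on 0 of the vehicle arrays. Those 2 were KO dexamethasone replicate 1 and WT dexamethasone replicate 3, the arrays high in neutrophil markers. The latter was also the only array of the second scan date.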

How the results depend on the processing

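Members were compared with their main result in 525 combinations of comparison and setting: 478 stayed on the same side of the threshold (in 21 of them the sign changed with neither value called), 38 lost a call, 9 gained one and 0 reversed. Prodh in KO against WT passed in all 15 settings under each treatment and averaged (-3.59 to -2.79). Counts of members that passed moved as follows. Median scaling gave 0 with dexamethasone in KO and 1 in KO against WT under vehicle. Normexp gave 0 with dexamethasone in WT, in KO and averaged, and 1 in each KO against WT comparison; its 5th percentile of log2 signal ranged from 5.87 to 9.52 across arrays, and background subtraction with an offset, added after seeing the data, gave 0 to 3. Slide as a fixed block gave 0 with dexamethasone in WT, and as a random block 4 in KO. With dexamethasone in KO, probes well above background on all arrays gave 2, array weights 2, the mean of a gene's probes 0, and omission of slide 7 with WT dexamethasone replicate 1, also added later, 0. In KO against WT under vehicle the mean of probes gave 1 and that omission 1. With 1 array left out, the counts ranged from 0 to 3 with dexamethasone in KO, from 2 to 3 in KO against WT under vehicle and from 2 to 4 with dexamethasone averaged, and were 2, 3, 3 and 0 throughout for dexamethasone in WT, KO against WT under dexamethasone and averaged, and the interaction. The replicate block gave 2 in KO against WT under vehicle (Oat adjusted p 0.179) and 2 with dexamethasone averaged (Odc1 adjusted p 0.0581), and changed no other member's call. Reversals were seen among other genes only: with normexp Nos2 changed by 0.13 in KO, 0.24 in WT and 0.18 averaged and Pycrl by 0.044 averaged, and with the mean of probes Slc7a1 changed by -0.32 in KO and -0.29 averaged with dexamethasone. Over all features, the 67 calls of KO against WT under vehicle ranged from 17 (normexp) to 447 (random slide block), the 473 under dexamethasone from 45 (fixed block) to 946 (random block), the 339 averaged from 61 (normexp) to 985 (random block), the 2694 with dexamethasone in WT from 185 (normexp) to 4489 (array weights), the 2573 in KO from 404 (normexp) to 5073 (random block), the 4340 averaged from 929 (normexp) to 6131 (random block), and the 0 of the interaction to 336 (random block). The cause of these shifts was not tested.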
